A study of Mus musculus with 21 samples.

Results

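Among the loci assembled from mouse taste bud RNA, 253 held a single gene name and at least 5 transcripts of class j. These loci were chosen by that rule from the 32052 of the table, of which 26102 held 1 gene name and 5950 held several. Class j is the code that the assembler's comparison step gives to a transcript that shares at least 1 splice junction with an annotated transcript but not its whole chain of introns. Class = marks a transcript with the complete intron chain of an annotated one. The 253 loci carried 1594 class j transcripts, 8.83% of the 18052 in the merged annotation, beside 3200 of class =. Because the number of class j transcripts selected the loci, those numbers are given as a description.

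RNA came from taste buds of the circumvallate papilla, at the back of the tongue, of wild-type C57BL/6J mice aged 20 to 24 weeks. The 21 libraries fell into the groups Ad lib, Satiated and Hungry, with 7 libraries in each, and were made from total RNA with oligo(dT)-primed cDNA. The series' own design text speaks of mice that were fed, fasted or fed ad libitum. The deposited table has a mean and a variance per locus under 3 condition names, and these were identical at all 32052 loci, so no comparison of feeding states could be made. Levels below are the authors' mean number of size-factor-scaled fragments per library, and each ± is the square root of the authors' variance. How that variance was made from the 21 libraries is not known, since the conditions are identical, so no ± is read as an SD between libraries. No value per library was used, and no n is attached. Compatible fragments fit an annotated or assembled transcript of the locus, and total fragments include all those placed there. In bulk RNA of this kind, fewer cells of a type and less RNA per cell cannot be told apart.

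Defining markers of taste cells were abundant, with 24576 compatible fragments of Gnat3, 13734 of Otop1 and 13472 at the locus that holds Entpd2. Genes of the surrounding epithelium were abundant too, with 41906 fragments of Krt6a and 19096 of Krt4. Markers of fibroblasts, muscle and von Ebner glands were low, with 5.31 fragments of Col1a2, 7.09 of Myh4, 3.04 of Lipf and 0 at the locus that holds Dcpp1. Pecam1 of endothelium had 42.6, and the locus that holds Ptprc of leukocytes had 47.4. Cdh5, also of endothelium, had 0.0403 compatible of 209 total fragments. Whether an assembled transcript came from taste cells, from the epithelium around them or from other cells was not tested.

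Splicing removes introns from a primary transcript and joins the exons, and many genes join them in more than one way. A cassette exon is held in some mature transcripts and skipped in others, and a gene with several such exons and several first exons can make many mRNAs. Short sequencing fragments show individual junctions directly, whereas the way distant choices are combined on 1 molecule is inferred by the assembler.

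Cassette exons of class = transcripts that class j transcripts also held or skipped are shown first, because nearly all of the new structures were built from such known parts. The exon is in capitals and the 20 bases on each side, from the flanking exons, are in lower case. Sequences were read from GENCODE M21 transcripts on GRCm38 and the examples were chosen after their values had been seen. The first set is the 4 coding cassette exons of Ktn1, at chr14:47704420-47704488, chr14:47716874-47716960, chr14:47725929-47726000 and chr14:47726471-47726554, all on the plus strand. Their lengths of 69, 87, 72 and 84 bases are all multiples of 3.
Ktn1 exon of 69 bases: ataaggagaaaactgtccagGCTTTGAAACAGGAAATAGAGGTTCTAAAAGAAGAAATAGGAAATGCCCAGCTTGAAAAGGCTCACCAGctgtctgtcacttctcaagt
Ktn1 exon of 87 bases: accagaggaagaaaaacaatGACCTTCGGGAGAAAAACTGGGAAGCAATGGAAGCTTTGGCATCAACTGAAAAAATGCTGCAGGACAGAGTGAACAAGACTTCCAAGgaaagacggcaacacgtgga
Ktn1 exon of 72 bases: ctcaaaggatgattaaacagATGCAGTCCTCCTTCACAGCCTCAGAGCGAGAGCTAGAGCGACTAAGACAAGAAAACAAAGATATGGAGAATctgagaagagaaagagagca
Ktn1 exon of 84 bases: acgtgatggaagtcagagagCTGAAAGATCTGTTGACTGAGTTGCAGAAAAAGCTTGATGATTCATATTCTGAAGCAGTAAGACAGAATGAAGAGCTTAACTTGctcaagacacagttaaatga

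A second set shows coding exons whose holding and skipping differed in number between the classes or that leave different reading frames. The exon of Agtpbp1 at chr13:59517653-59517690 has 38 bases, that of Impdh1 at chr6:29201888-29201904 has 17 and that of Actr3 at chr1:125418249-125418304 has 56, none a multiple of 3. The exons of Sec31a at chr5:100389068-100389106, Zmynd11 at chr13:9712983-9713027, Camk2b at chr11:5981070-5981114, Elmo2 at chr2:165303666-165303701 and Numb at chr12:83825259-83825291 have 39, 45, 45, 36 and 33 bases. All 8 lie on minus strands.
Agtpbp1 exon of 38 bases: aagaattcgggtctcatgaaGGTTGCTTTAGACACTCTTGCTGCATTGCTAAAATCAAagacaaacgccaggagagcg
Impdh1 exon of 17 bases: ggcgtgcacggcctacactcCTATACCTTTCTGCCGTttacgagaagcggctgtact
Actr3 exon of 56 bases: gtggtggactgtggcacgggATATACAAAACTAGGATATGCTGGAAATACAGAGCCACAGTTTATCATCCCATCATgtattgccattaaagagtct
Sec31a exon of 39 bases: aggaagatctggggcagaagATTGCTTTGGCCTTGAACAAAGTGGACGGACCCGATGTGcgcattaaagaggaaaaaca
Zmynd11 exon of 45 bases: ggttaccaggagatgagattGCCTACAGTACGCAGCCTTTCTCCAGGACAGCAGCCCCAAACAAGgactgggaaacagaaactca
Camk2b exon of 45 bases: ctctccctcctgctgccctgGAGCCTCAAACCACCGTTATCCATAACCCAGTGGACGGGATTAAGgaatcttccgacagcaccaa
Elmo2 exon of 36 bases: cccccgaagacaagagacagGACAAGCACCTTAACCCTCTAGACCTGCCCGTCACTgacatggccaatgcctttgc
Numb exon of 33 bases: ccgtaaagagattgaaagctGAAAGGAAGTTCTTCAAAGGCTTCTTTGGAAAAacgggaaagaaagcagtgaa

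Nearly all class j transcripts were built from known junctions only. Of the 1594 class j transcripts, 1592 (99.9%) used only introns found in class = transcripts of the same locus. No internal exon of a class j transcript lay free of every annotated exon. A new pairing of a known acceptor with a known donor, giving an internal exon of changed length, occurred in 446 transcripts (28%), and in 234 (14.7%) that exon ran across a known intron. Both ends of 1543 transcripts (96.8%) coincided with an end of a class = transcript. Over all loci, 41 of 18052 class j transcripts (0.227%) held a junction absent from the class = transcripts, and outside the 253 loci it was 39 of 16458 (0.237%). The merged annotation held 127466 transcripts, 109414 of class = and 18052 of class j. How far alignment and assembly admitted junctions outside the annotation was not tested, so the low shares are not read as a property of the tissue.

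The single new junction belonged to Dhodh, which encodes the mitochondrial dihydroorotate dehydrogenase of pyrimidine synthesis. It spans 139 bases at chr8:109594777-109594915 on the minus strand and occurred in 2 of the 7 class j transcripts. An intron of 136 bases at chr8:109594777-109594912 was used by 5 class = transcripts, and another of 136 bases at chr8:109594780-109594915 by 2. The new junction joins the outer ends of these known introns. The region is shown with 20 exon bases in capitals on each side of the new intron in lower case, at chr8:109594757-109594935.
Dhodh new intron: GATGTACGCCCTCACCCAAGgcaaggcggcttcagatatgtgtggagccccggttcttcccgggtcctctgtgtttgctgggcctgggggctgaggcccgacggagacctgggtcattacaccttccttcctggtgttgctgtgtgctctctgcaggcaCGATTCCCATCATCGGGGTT

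A run of gca stands at both ends of the lower-case stretch. The known introns therefore leave the same spliced bases, with ends read as AG and CA in the first and GC and AG in the second. The new intron has ends GC and CA and shortens the spliced RNA by 3 bases. Of 939 known introns of the 253 loci whose ends could be read, 894 (95.2%) had GT and AG. Counting ends within 3 bases of a known end as known left no new junction.

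How many annotated pieces each class j transcript joined was counted as the smallest number of unbroken stretches, each found whole in 1 class = transcript. For 888 transcripts (55.7%) the number was 2, and for 607 (38.1%) it was 3 or more. The highest number was 8, in 1 transcript. The other 99 (6.21%) lay within 1 annotated chain and differed in where they began or stopped. Apart from their first intron, 445 transcripts (27.9%) ended in the same chain as a class = transcript, and apart from their last intron 223 (14%) began like one. Neither held for 1014 (63.6%). These can include transcripts that only began and stopped inside an annotated chain, and where their change lay was not measured.

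The distance between the junctions whose combination was new tells how long a fragment would have to be to show it. It was measured as the fewest exonic bases between 2 introns that no class = transcript holds with everything between them, and it could be given for 1493 transcripts. The median was 379 bases, with quartiles of 228 and 661 and a range from 9 to 5308. It exceeded 300 bases in 923 (61.8%) and 1000 bases in 162 (10.9%), and 90 (6.03%) had 100 bases or fewer. No fragment length of the libraries was used here, and how many of these links single fragments covered was not tested.

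**Figure D1:**
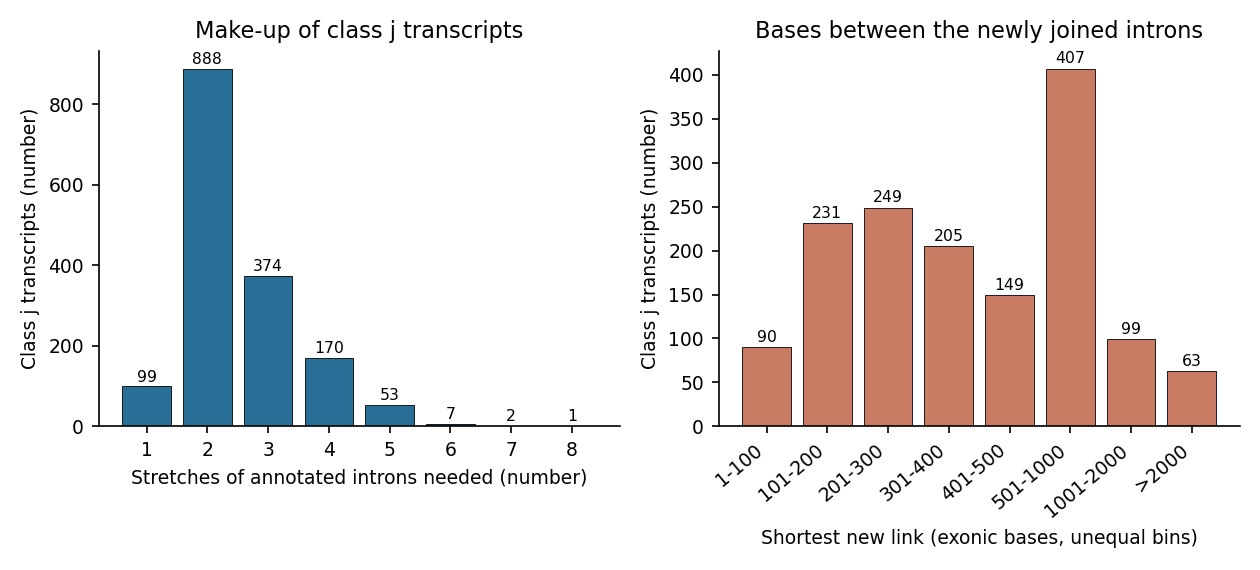
Left, class j transcripts of the 253 loci (number) by the smallest number of stretches of annotated introns that build them. Right, the same transcripts by the exonic bases between the newly joined introns, in bins of unequal width. Most transcripts need 2 stretches (888), and 923 of 1493 links exceed 300 bases.

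At most loci a small part of the possible combinations was present, that is, listed in the merged annotation. If known first exons, introns, internal exons and last exons of a locus are joined freely, the median locus allows 115 intron chains and the range runs from 14 to 76010. The median locus held 16 of these allowed chains, counting both classes, and the median share present was 12.6%. The chains of the class = transcripts, from which the allowed set was made, are present by construction. Chains with a new junction or with an internal exon of newly paired ends lie outside the allowed set and were not counted. In 108 loci fewer than 10% of the allowed chains were present, and in 8 at least 50%. Pls3, which encodes an actin-bundling plastin, had 11 of 14 chains, and Ank3, the gene of the membrane adaptor ankyrin-G, had 46 of 76010. Of the class j chains, 5 (0.314%) are transcripts of the later GENCODE M21 annotation, 1 each in Dlg4, Ccdc40, Ercc6l2, Gtpbp10 and Pus7.

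The number of class j transcripts per locus ran from the threshold of 5 to 22, with a median of 6. Exactly 5 were found at 126 loci, for example Abcc12, Abi2, Adam33, Adamts10 and Adamtsl5, and 10 or more at 19. Just outside the rule, 212 single-gene loci had 4, with a median of 470 compatible fragments against 660 at the 126 loci with 5. No locus had more class j than class = transcripts. The class = transcripts numbered 5 to 55 per locus, with a median of 12. A class j transcript had a median of 13 exons (2 to 49) and 3266.5 bases, against 6 exons and 924.5 bases for the class = transcripts of the same loci.

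**Figure D2:**
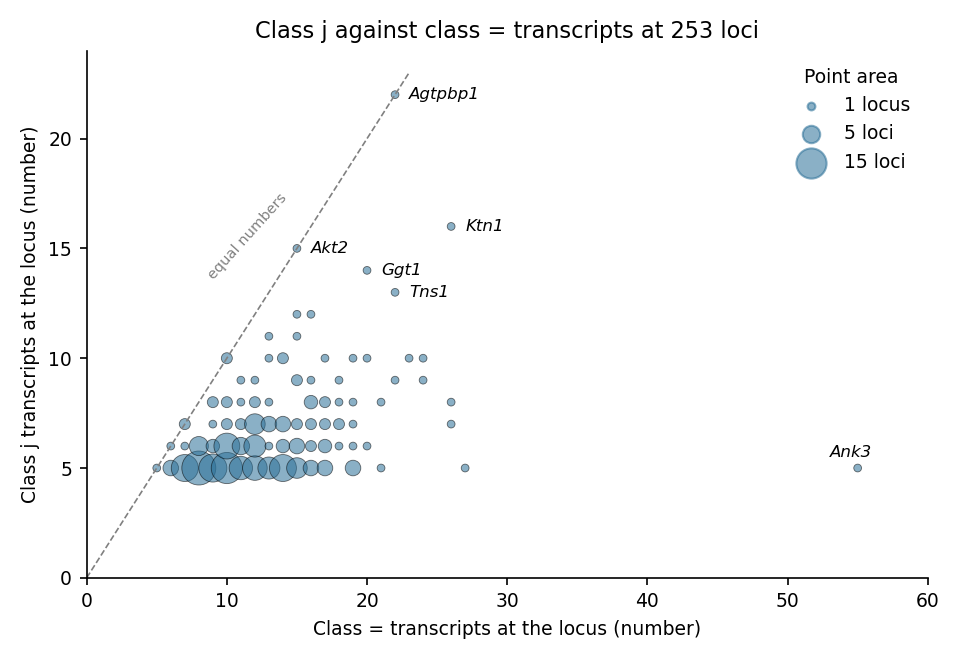
Class j transcripts (y axis, number) against class = transcripts (x axis, number) at each of the 253 loci, with point area by the number of loci. The dashed line marks equal numbers, and no locus lies above it. Agtpbp1 and Akt2 lie on it with 22 and 15 of each class.

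Loci with more annotated transcripts were more often among the 253. Of 8696 single-gene loci with at least 10 compatible fragments, 227 (2.61%) met the rule. With 1 to 4 class = transcripts none of 6140 did. This 0 was not read as a rate, since class j transcripts are joined from parts of class = transcripts. Whether so few class = transcripts could give 5 of class j was not tested. The share was 2.84% (2.19 to 3.68, 95% Wilson interval, counting error only) with 5 to 9, 21.2% (17.8 to 25) with 10 to 14 and 51.9% (42.5 to 61.2) with 15 to 19. At 20 or more it was 15 of 33 loci, 45.5% (29.8 to 62.0), an interval that overlaps the one before. Within each of these classes the intervals at different levels overlapped. With 10 to 14 class = transcripts the share was 16.4% (8.86 to 28.3) at 10 to 100 fragments, 22.1% (17 to 28.1) at 100 to 1000 and 21.5% (16.5 to 27.5) above that. The numbers of class j and class = transcripts at a locus are for the same reason not independent, and the intervals describe these loci only.

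**Figure D3:**
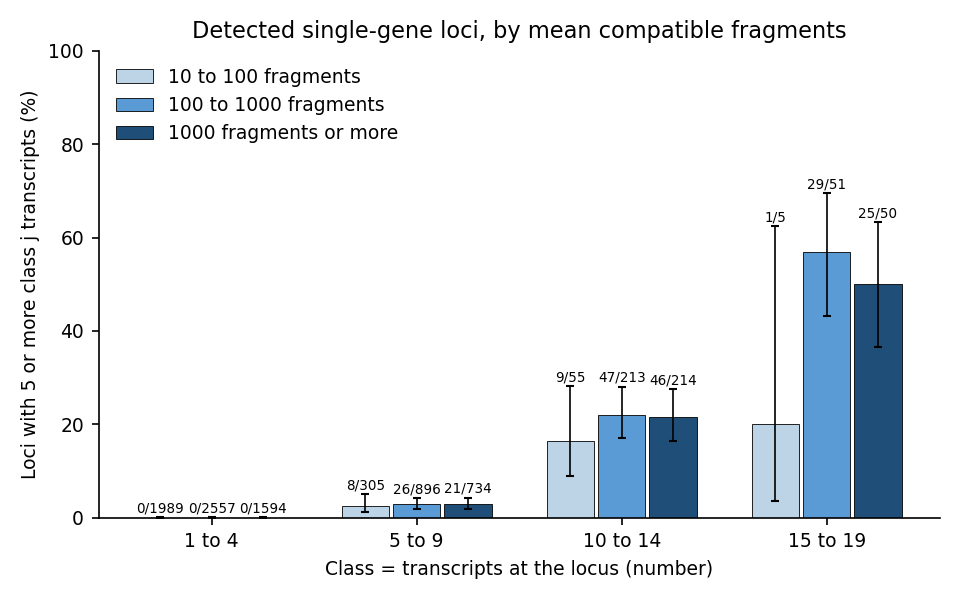
Share of detected single-gene loci that hold at least 5 class j transcripts (y axis, %) by number of class = transcripts (x axis) and by mean compatible fragments (shade). Bars start at 0, whiskers are 95% Wilson intervals and the numbers are loci that met the rule of all loci. Loci with 20 or more class = transcripts are not drawn. Bars at 1 to 4 stand at 0, which was not read as a rate. Over all levels, which have no bar, the share was 2.84% at 5 to 9 and 51.9% at 15 to 19. Bars of 1 class have overlapping whiskers.

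Agtpbp1, whose product CCP1 removes glutamates from tubulin tails, had most class j transcripts, 22 beside 22 of class =, on chr13:59449537-59585227. Its level was 776 ± 167 compatible and 964 total fragments, and the class j transcripts had 11 to 27 exons. At least 3 stretches were needed by 19 of the 22, and 17 held an internal exon with a new pairing of ends. The 38-base exon shown above was held by 20 and skipped by 2 class j transcripts, against 8 and 2 of class =. Read from an annotated start codon, 19 had other coding bases than any annotated protein-coding transcript and a stop over 50 bases before the last junction. Here and below, coding bases that GENCODE M21 gives only to transcripts of other types counted as other.

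Ktn1, the gene of kinectin, a protein of the endoplasmic reticulum that binds kinesin, had 16 class j transcripts beside 26 of class = on chr14:47648448-47736564. Its level was 5549 ± 844 compatible and 5675 total fragments. All 16 began at 1 upstream first exon of 130 bases, at chr14:47648448-47648577, which 1 class = transcript used. Among the 20 class = transcripts that span all 4 cassette exons, 17 had a first exon that ends at position 47664315, and the nearest start among these lay 15178 bases past the upstream first exon. Each of the 16 shared all introns but the first, at least 36, with a class = transcript.

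The class j transcripts of Ktn1 thus carried the cassette patterns of the class = transcripts on another first exon. The 69-base exon was held by 4 of 16 class j and 8 of 20 class = transcripts, the 87-base exon by 7 of 16 and 9 of 21. The 72-base exon was held by 7 of 16 and 10 of 20, and the 84-base exon by 5 of 16 and 7 of 20. Of 16 possible patterns of the 4 exons, 13 occurred in class = and 11 in class j, and no class j pattern was absent from class =. The one class = transcript with the upstream first exon held all 4. From the first exon to the nearest junction that makes the combination new there were 2536 to 3490 bases. All 16 had the coding bases of an annotated transcript, with 1200 to 1304 codons.

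**Figure D4:**
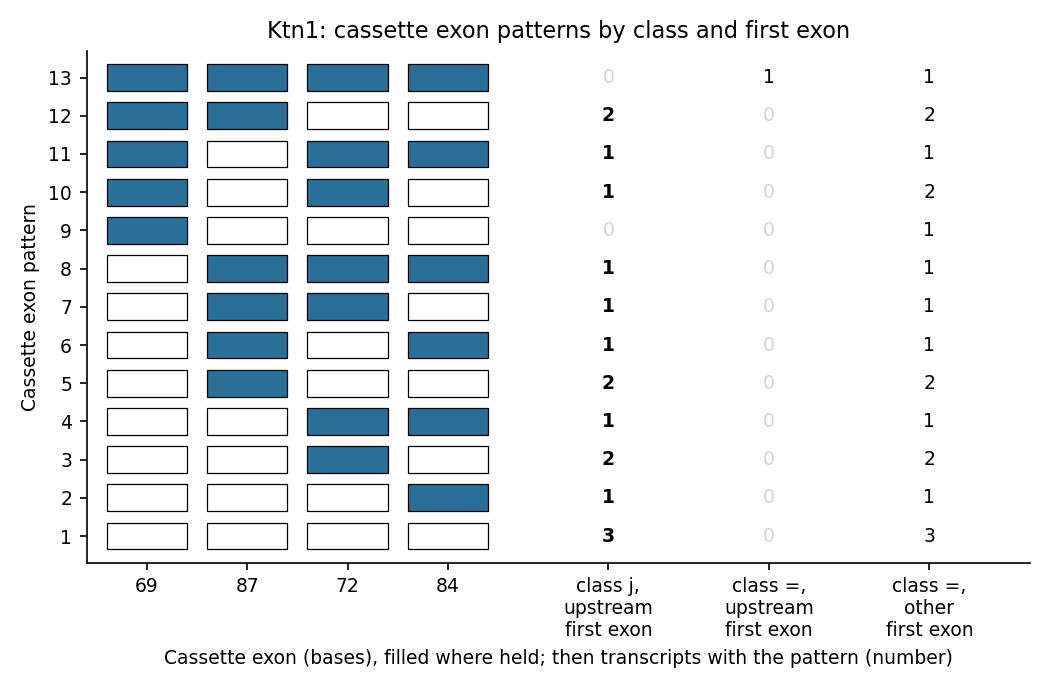
The 13 patterns of the 4 cassette exons of Ktn1 (rows), with a filled box where the exon is held, and the number of transcripts with each pattern by class and first exon. Class j transcripts show 11 patterns, all on the upstream first exon, where class = has 1 transcript.

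The pattern of Ktn1 was not general. At 64 of the 253 loci (25.3%) all class j transcripts shared 1 first exon end, and at 13 of these a single class = transcript used it. At 114 loci (45.1%) they shared 1 last exon start. Tns1, the gene of tensin, which links integrins to actin, had 13 class j transcripts with 9 first exon ends. In 10 of these 13 all introns but the first were those of a class = transcript. Its level was 207 ± 37.8 compatible and 241 total fragments. Over the 253 loci the median was 2 first exon ends in class j and 6 in class =. The median numbers of transcripts were 6 and 12, so the numbers of ends are not on equal terms.

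Akt2, a protein kinase of insulin signalling, had 15 class j transcripts beside 15 of class = and 1923 ± 266 compatible fragments. Its class j transcripts began at 8 first exon ends, and 8 of the 15 had annotated coding bases. Ggt1, the gene of gamma-glutamyltransferase of glutathione breakdown, had 14, although its level was 4.30 ± 6.54 compatible fragments. It was the only locus with 10 or more class j transcripts below 10 compatible fragments. Of its 14, 5 had annotated coding bases and 9 other coding bases with a stop near or after the last junction.

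Next, with 12 class j transcripts each, came 5530601H04Rik at 430 ± 95.5 compatible fragments and Prpf40b, the gene of a splicing factor, at 256 ± 118. Naa35, a subunit of an N-terminal acetyltransferase, and Gmppa, a regulator of GDP-mannose synthesis, had 11 each at 3649 ± 367 and 583 ± 121. The 10 loci with 10 included Pum2, an mRNA-binding repressor, at 7412 ± 1198 and Rsrc2, an arginine and serine rich protein, at 3906 ± 542. Sun1, of the nuclear envelope, stood at 3633 ± 455, and Qars, the glutaminyl-tRNA synthetase, at 3536 ± 386. Zmynd11, a reader of methylated histone H3, stood at 3296 ± 363 and Elmo2, a partner of Rac activators, at 614 ± 130. At Pum2 all 10 needed at least 3 stretches, and at Rsrc2 1 of 10 did.

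Cassette exons with their skipping junctions in class = transcripts numbered 675 in 218 of the loci. Class j transcripts held some and skipped others: 488 of these exons, in 195 loci, were both held and skipped within class j. At 98 loci, 291 pairs of cassette exons had a combination in class j that no class = transcript showed. Among coding cassette exons, 244 of 391 (62.4%) had a length divisible by 3, and 181 of 295 (61.4%) of those both held and skipped by class j did. The latter had a median length of 94 bases and ranged from 6 to 975.

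For the exons shown above, numbers of transcripts differed between the classes at several loci. The 17-base exon of Impdh1, the gene of an IMP dehydrogenase of guanine nucleotide synthesis, was held by 9 and skipped by 1 class j transcript, against 1 and 5 of class =. The printed 39-base exon of Sec31a, of the COPII coat of vesicles, was held by 7 and skipped by 2, against 1 and 2. Another 39-base exon of Sec31a, at chr5:100369596-100369634, was held by 3 and skipped by 3, against 1 and 2. In Zmynd11 the 45-base exon was held by 1 and skipped by 6, against 1 and 10. In Elmo2 the 36-base exon was held by 1 and skipped by 8, against 2 and 7. These are numbers of assembled structures, not amounts of RNA, and a locus gives a single total for all its transcripts.

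Coding sequence was followed from an annotated start codon in 1549 class j transcripts of the 246 protein-coding loci. A start and a stop were found in 1335 of them, 174 held no annotated start codon and 26 reached no stop. Of the 1335, 326 (24.4%) had exactly the coding bases of a transcript that GENCODE M21 types as protein-coding and so differed outside them. Coding bases annotated only on transcripts of other types counted as other coding bases. Another 342 (25.6%) had other coding bases with the stop near or after the last junction, and 667 (49.96%) had other coding bases and a stop over 50 bases before it. Of the 326, 55 also had a stop that early, so 722 of the 1335 (54.1%) had one in all. A stop that far before the last junction is, as background, the feature that nonsense-mediated decay recognises. Of 3121 class = transcripts at these loci, 1064 held no annotated start codon and 573 reached no stop. Among the 1481 with a start and a stop the shares were 61.5%, 15.9% and 22.6%, and 349 (23.6%) had an early stop with either kind of coding bases. Most class = transcripts are themselves the annotated ones, so their first share was largely set in advance and the classes were not compared. At 143 loci at least 1 class j transcript had other coding bases that stayed open to the last exons.

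The outcome differed by gene. All class j transcripts had annotated coding bases at 11 loci, among them Ktn1, Src, the gene of a tyrosine kinase, Pls3 and Sept2, of the septin filaments. All 5 of Abi2, a subunit of the complex that activates actin branching, and all 8 of Fnbp1, which bends membranes, had other coding bases with a late stop. All 7 of Srsf11, all 7 of Tia1 and all 5 of Hnrnph1, whose products bind RNA and take part in splicing, had other coding bases with an early stop, as had all 5 of Setd5.

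By level, the 253 loci had a median of 634 compatible fragments (quartiles 233 and 1678) and 719 total fragments. Per kilobase of exonic length the median was 133, against 134 at the other 8469 detected single-gene loci, where the median per locus was 383 fragments. Over the 227 detected of the 253, the medians were 148 per kilobase and 803 per locus. The exonic length was 5.66 kb at the median of the 253 and 2.93 kb at the others. The loci held 1.98% of all compatible fragments. Detection at 10 compatible fragments was reached by 227, 26 stayed below it, and 12 were below 1. The median of the square root of the variance over the mean was 0.198 over the 253 and 0.189 over the 227, against 0.257 at the other detected loci.

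Per kilobase, the highest was Mme, the gene of the cell-surface peptidase neprilysin, at 4153, followed by Pls3 at 3988 and Actr3, a subunit of the Arp2/3 complex that branches actin, at 2566. In fragments per locus these were 47934 ± 8861 for Mme, 16976 ± 2638 for Pls3 and 11885 ± 1350 for Actr3. Their class j transcripts numbered 6, 5 and 8, so abundance and number of class j transcripts did not go in 1 order. The 6 of Mme had 10 to 11 exons, while its longest transcript had 23, and all 6 ended their reading frame after 348 codons with a late stop. The 56-base exon of Actr3 was held by 3 and skipped by 2 of its 8, against 6 and 2 of class =.

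The other loci among the 10 with most fragments were Rbm39 at 10761 ± 896, Sept2 at 10449 ± 1052 and Socs2, a suppressor of cytokine signalling, at 10131 ± 762. Jup, the gene of plakoglobin of cell junctions, had 9871 ± 1850, Caprin1, of stress granules, 9821 ± 1250, and the general transcription factor gene Gtf2i 8796 ± 830. Rsrp1, another arginine and serine rich protein, had 8287 ± 1838. At Rsrp1 all 5 class j transcripts lacked an annotated start codon, and at Socs2 4 of 5 had an early stop. At Caprin1 4 of 6 lacked an annotated start codon.

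Among the loci with most exons per transcript were Cit, AI314180, Flna and Ank3. Cit, a kinase of cell division, and AI314180, named Ecpas in GENCODE M21, reached 49 exons with 9 and 6 class j transcripts. Flna, which encodes an actin cross-linker, reached 48 exons and Ank3 46, with 5 class j transcripts each. Levels were 59.1 ± 27.4 compatible fragments at Cit, 3130 ± 518 at AI314180, 2327 ± 313 at Flna and 2550 ± 305 at Ank3. The longest new link of all, 5308 bases, was in Flna.

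At most loci nearly all fragments were compatible with the transcripts. The median compatible share was 96.8%, and 96.96% over the 227 detected, against 95.4% at the other detected loci, and 151 of 251 loci with fragments had 95% or more. It was below 50% at 14 loci, of which 8 had at least 10 total fragments. Camk2b, a subunit of a calcium and calmodulin dependent kinase, had 475 ± 90.0 compatible of 14578 ± 11452 total fragments. The share of the means was 3.26%, and the wide ± of the total applies to it too. Its 45-base exon shown above was held by 5 and skipped by 4 class j transcripts, against 7 and 4 of class =. The 14102 fragments that were not compatible lay in a span without another GENCODE M21 gene. Among loci with over 100 total fragments the next lowest shares were 24.9% at Safb2, 32.3% at Nfrkb and 48.4% at Cit.

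Among weakly covered loci, Aqp9, a water and glycerol channel, had 0.236 compatible of 32.9 total fragments and Cr2, a complement receptor, 1.99 of 45.2. The loci Gm10863 and BC006965 had 0.742 of 11 and 3.36 of 14. These still carried 6, 8, 5 and 7 class j transcripts. At 5 loci no compatible fragment was listed, namely Dlk1, Slc34a3, CH36-169F23.5 and the patch loci DLK1 and Gm28136. The 6 class j chains of Dlk1 recur with the same lengths at DLK1, and the 5 of CH36-169F23.5 at Gm28136, which GENCODE M21 gives as its name. Total fragments were 1.07 at Dlk1, 2.09 at Slc34a3 and 0.134 at CH36-169F23.5, and 0 at both patch loci. Class j transcripts are thus listed for loci with hardly any fragments in this table.

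**Figure D5:**
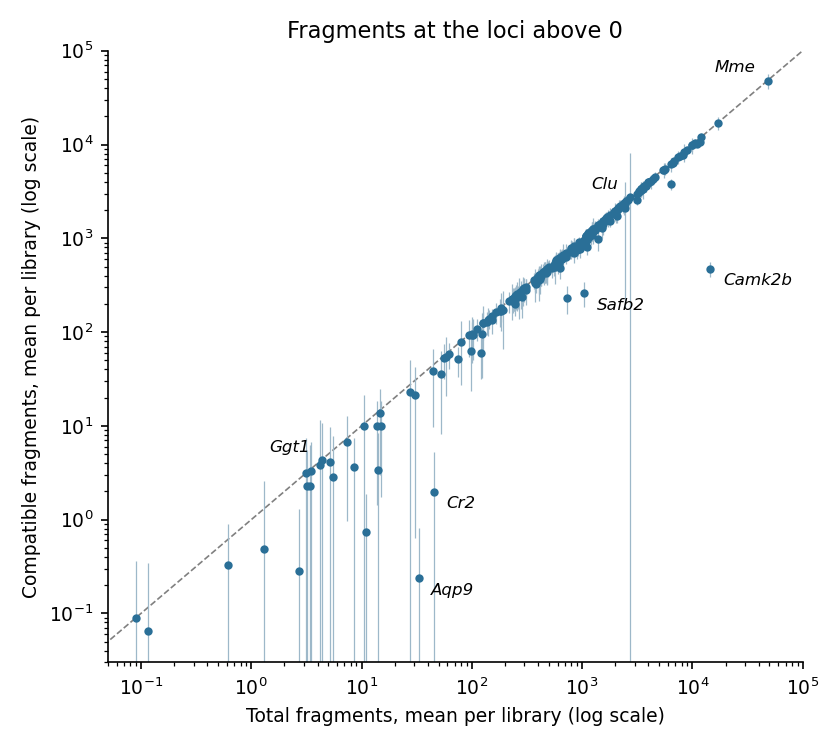
Compatible against total fragments (both axes logarithmic, mean per library) at the loci where both exceed 0, with whiskers of the square root of the authors' variance, cut at the lower axis where this exceeds the mean. Total fragments are drawn without whiskers. Most points lie on the dashed line of equality, and Camk2b lies far below it with 475 of 14578 ± 11452.

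The root of the authors' variance was largest relative to the mean, among loci with at least 100 compatible fragments, at Clu, the gene of the chaperone clusterin, with 2728 ± 5416 and a ratio of 1.99. Oasl2, an interferon-induced gene, followed with 2094 ± 1915 and 0.914, then Mms22l and Slx4, of DNA repair, with 0.613 and 0.522, and Prpf40b with 0.459. With no value per library, neither the library nor the group behind the value of Clu could be read. The log2 ratio of the variance to the variance fitted by the authors had a median of -0.77 over detected loci and was above 0 at 51 of 227. It was 7.03 at Clu and 4.66 at Oasl2.

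Genes were grouped by role with short hand-made lists, which leave out other genes of the same role among the 253, such as Akt2 and Cit of the kinases and Pls3, Actr3 and Flna of the actin proteins. The counts below are those of the lists, beside 2.61% of all detected single-gene loci, and are not shares of a gene class. List genes were not matched to others on their number of class = transcripts, and no share was read as particular to a list. The list of RNA-binding and splicing factors had 8 of 38 detected single-gene genes among the 253, namely Hnrnph1, Hnrnpl, Msi1, Rbm39, Srsf11, Srsf5, Tia1 and Tial1, a share of 21.1%. Per kilobase their levels ran from 25.5 at Msi1 to 1549 at Rbm39, with a median of 461. They carried 46 class j transcripts. Srsf11 had a compatible share of 59.0%, with 3749 of 6357 fragments, and the other 7 had 91.7% or more.

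The list of chromatin and transcription genes had 5 of 26 (19.2%, beside 2.61% over all), among them Gtf2i, Mga, Setd5 and Zmynd11, with 34 class j transcripts in all. The list of actin, microtubules and motors had 5 of 28 (17.9%), Abi2, Ank3, Fnbp1, Myh10 and Myh14, with 28. Myh10 and Myh14 encode heavy chains of non-muscle myosin, and their levels per kilobase were 12.9 and 460. The list of kinases and signalling scaffolds had 5 of 28 (17.9%), Arhgap12, Camk2b, Map4k4, Nf2 and Src, with 31. The list of membrane traffic had 2 of 22 (9.09%), Numb, an inhibitor of Notch, at 1038 ± 191 and Sec31a at 1649 ± 233. The 33-base exon of Numb was held by 2 and skipped by 2 of its class j transcripts, against 5 and 3 of class =.

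In the taste gene lists 1 gene met the rule, and at the overall share of 2.61% lists this short hold few members or none. None of 13 genes of type II taste cell signalling, none of 4 of type I cells and none of 13 of progenitors and renewal met the rule. Of 14 type III and synapse genes only Dlg4, the postsynaptic scaffold PSD-95, did, with 10 class j transcripts at 38.1 ± 28.4 compatible fragments. Of 26 keratin and junction genes Jup met it (3.85%), and of 40 immune and interferon genes Clu and Oasl2 (5%), each with 5 class j transcripts. The counts cover only genes with a locus of their own, and 36 of the 253 also have another GENCODE M21 gene within their span.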

How the data were processed

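RNA of 21 libraries was sequenced. The submitters' processing notes list GRCm38.p4 as genome build and, with no version, Trimmomatic, FastQC, TopHat, Bowtie2, Cufflinks and Cuffdiff. Deposited by the authors are a merged annotation with class codes and a table whose values, per the file headers, are a signal: mean compatible and total fragments per locus, with variances and a fitted variance. Counts per library and their totals were not analysed here, so depth is unknown.

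Each transcript was placed in the locus that holds it. Intron chains, stretches, links and cassette exons were compared between class j and class = transcripts of a locus; class = includes 125 transcripts of these loci with assembled names. Structure measures were tested on simulated loci. Coding bases were followed from an annotated start codon, that of the nearest annotated transcript first, in sequences of GENCODE M21 transcripts; 92.3% of class = transcripts have an ID there. No genome sequence was used, so intron ends could be read only where another transcript holds them. New internal exons without overlap to known ones numbered 0 and new introns 1, so their planned shares have no value. Python 3.11.15, pandas 2.3.3 and scipy 1.17.1 were used. No test was made, because a readout of the same libraries chose the loci.

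Named genes are the 15 loci with most class j transcripts, the 10 with the highest and 5 with the lowest compatible mean, the 5 with most exons, lowest compatible share and highest ratio of the root of the variance to the mean at 100 or more fragments, and list members. Members and lists were chosen with earlier results of these data known. Dhodh, Impdh1, Ccdc40, Ercc6l2, Gtpbp10, Pus7, Safb2, Nfrkb and the detail on Ktn1 and on printed exons were chosen after their values were seen. The values of 1 named locus are not reported here.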

Additional observations from a re-analysis of the deposited data

How the results depend on the processing

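Of 27 alternative values, 17 kept to their main value and 10 moved. The limit was 1.5 times for counts, the 95% Wilson interval for shares and the median root of the authors' variance for levels. For other medians, that of the compatible share included, it was the spread between the quartiles over loci, divided by 2. The number of loci was 253 with at least 5 class j transcripts, 465 with at least 4, 127 with at least 6 and 19 with at least 10. The share of detected loci that met the rule was 2.61%, and 2.19% with detection at 1 fragment, 3.11% at 50 and 2.11% at 10 total fragments. The median level of 634 became 803 over the 227 detected loci. The compatible share of 96.8% became 92.8% as a ratio of sums. The share of class j transcripts with a new junction, 0.125%, became 0 when ends within 3 bases counted as known. The 1 new junction counted as 2 by transcripts. Chosen after seeing the data, the first annotated start codon gave 22.8% of class j transcripts with annotated coding bases, against 24.4%, and 54.6% with an early stop, against 54.1%. Without the patch loci 251 remained. No paired analysis was possible because the table holds 1 mean over libraries per locus and identical values for the 3 conditions. Leaving out a replicate was not possible either. The share of new introns with GT and AG ends and the share of new exons divisible by 3 were not run under alternatives, with 1 and 0 features. Depth per library is unknown, and loci listed at 0 carry no limit.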
